A study of Mus musculus with 7 samples.

Results

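The 42 protein-coding collagen genes of the mouse other than the type I genes were examined in osteoblasts, the bone-forming cells, of mice with and without a lung tumor. Members were all genes whose symbol is Col, a number, a and a number, without Col1a1 and Col1a2, and they made up 42 of the 23725 gene IDs measured. All 7 mice were male C57BL/6 animals carrying KrasLSL-G12D/WT and p53Flox/Flox alleles together with Ocn-GFP, a reporter that marks cells using the osteocalcin promoter. The tumor-bearing group held 4 mice, 3 aged 31 weeks (replicates 1 to 3) and 1 aged 23 weeks (replicate 4). The tumor-free group held 3 mice, 2 aged 31 weeks (replicates 1 and 2) and 1 aged 23 weeks (replicate 3). Lung tumors were started with AdCre, an adenovirus carrying Cre recombinase, given into the airway 14 weeks before the bones were taken, and the labels do not say whether tumor-free mice received virus. From digested bone pooled with lineage-depleted marrow, 2000 GFP-positive cells lacking CD45, CD31 and Ter119 were sorted per mouse, and each mouse gave 1 library of transcript 3′ ends. GFP marks whatever cells use the osteocalcin promoter, and the labels give no tumor burden per mouse. The submitters describe the mice as matched by litter too, but the labels name no litter, so it entered no fit. The comparison addresses whether the collagens that osteoblasts make differ when a tumor grows in the lung.

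Collagens are proteins of the extracellular matrix whose chains wind around each other in a triple helix built on repeats of glycine and 2 further residues (Gly-X-Y). Fibrillar collagens form the long fibrils of bone, cartilage and tendon, network collagens form sheets such as those of basement membranes, and FACIT collagens (fibril-associated collagens with interrupted triple helices) sit on or near fibrils. Transmembrane collagens span the cell surface, beaded filament collagens (type VI) form fine filaments around cells, and in bone nearly all fibril mass is type I, with types III and V as minor partners.

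Library totals ran from 77127 to 169774 counts, and a count of 0 allows a level of up to 3 counts, which is 17.7 CPM at the highest total and 38.9 CPM at the lowest. CPM are counts scaled to a common library total. No gene had more than 282 to 303 counts in a library, and the highest collagen count was 238 (Col4a3). Whether counts per gene were limited from above, which would compress the highest values and the comparisons that use them, was not tested. Each library came from a separate mouse, and all intervals of shares cover counting error only. Bglap, the osteocalcin gene itself, had 0 to 2 counts per library, and the 11 osteoblast markers listed, type I collagen included, held 1530, 954, 1048 and 1187 CPM with a tumor and 2379, 1375 and 1374 CPM without, on unscaled totals as for all marker lists here. Most of these counts came from Col1a1 (305), Sparc (278), Runx2 (173), Col1a2 (156) and Ibsp (147). Spp1 had 32 counts over the 7 libraries, Alpl 21, Bglap2 5, Bglap3 4 and Sp7 4. In sorted bulk cells, fewer cells of a type and less RNA per cell cannot be told apart.

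The helix itself set the fibrillar chains apart by sequence, whereas the other classes overlapped one another. In the longest GENCODE vM21 coding transcript of each member, the longest unbroken run of Gly-X-Y held 216 to 344 triplets in the 9 fibrillar chains (median 338). The same run held 39 to 66 triplets in the 9 network chains, 32 to 113 in the 9 FACIT chains, 40 to 55 in the 4 transmembrane chains and 37 to 87 in the 6 beaded filament chains. Col4a3, a network chain, had 429 triplets in 25 runs, and Col2a1, a fibrillar chain, had 364 triplets in 3. Interruptions, not the number of triplets, thus set these 2 chains apart.

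**Figure D1:**
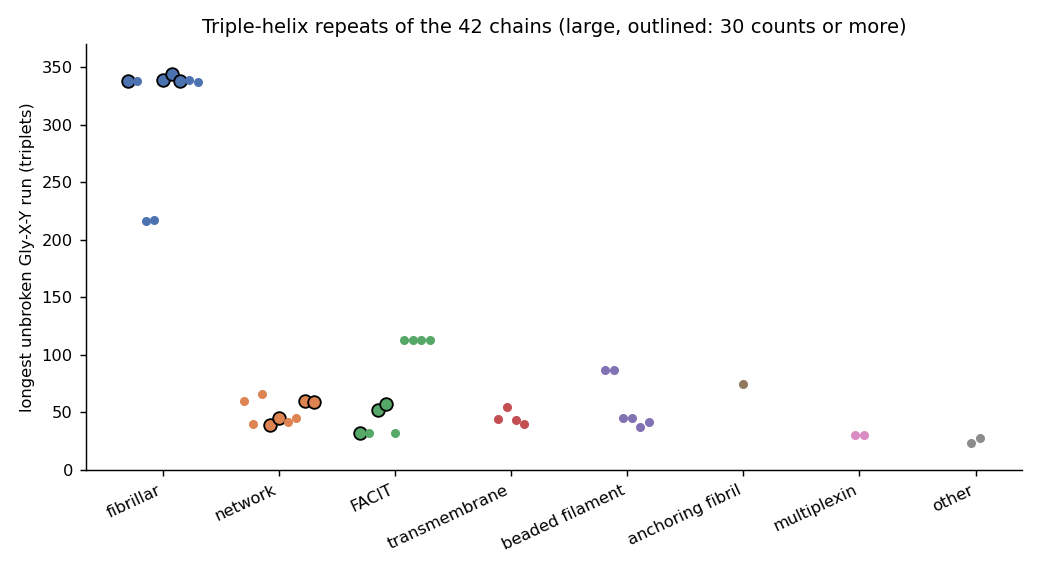
Longest unbroken Gly-X-Y run in triplets (vertical axis) of each of the 42 chains, 1 point per chain, by class (horizontal axis); large outlined points are the 11 genes with 30 counts or more. Fibrillar chains lie at 216 to 344 triplets, and no other chain exceeds 113.

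Neighbouring collagen genes shared several stretches of the genome. Col4a3 and Col4a4, the network chains with the most counts of type IV, lie head to head on chromosome 1. By GENCODE, as for all distances here, 71 bases lie between their starts. Col9a1 and Col19a1, both FACIT, lie 9205 bases apart on chromosome 1, and Col3a1 and Col5a2, both fibrillar, 24614 bases apart on the same chromosome. Sequences upstream of 4 places are shown because the results turn on these genes: the stretch shared by the Col4a4 and Col4a3 pair, Col19a1 with the most counts per GENCODE transcript length, and Col5a1 and Col3a1, chains that join type I fibrils. They are from RefSeq (GRCm38.p6), 5′ to 3′ on the strand named, upstream by GENCODE starts and without bases that lie in the GENCODE transcript. Capitals mark matches on either strand to the letters TATAAA, to the letters CCAAT or to the letters GGGCGG, none of which contains another, and a match is a description of letters.
Col4a4-Col4a3, chr1:82586850-82586920, minus strand: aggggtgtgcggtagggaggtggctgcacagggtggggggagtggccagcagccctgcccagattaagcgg
Col19a1, chr1:24587473-24587687, minus strand: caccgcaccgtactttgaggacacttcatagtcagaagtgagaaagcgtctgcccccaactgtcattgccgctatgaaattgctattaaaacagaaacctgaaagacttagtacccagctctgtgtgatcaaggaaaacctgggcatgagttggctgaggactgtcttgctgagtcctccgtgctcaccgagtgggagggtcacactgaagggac
Col5a1, chr2:27886175-27886424, plus strand: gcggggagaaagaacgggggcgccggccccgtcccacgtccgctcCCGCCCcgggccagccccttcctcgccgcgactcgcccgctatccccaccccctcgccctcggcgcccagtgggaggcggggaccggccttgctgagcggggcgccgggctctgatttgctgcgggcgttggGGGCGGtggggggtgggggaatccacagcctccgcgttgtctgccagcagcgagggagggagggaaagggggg
Col3a1, chr1:45311288-45311537, plus strand: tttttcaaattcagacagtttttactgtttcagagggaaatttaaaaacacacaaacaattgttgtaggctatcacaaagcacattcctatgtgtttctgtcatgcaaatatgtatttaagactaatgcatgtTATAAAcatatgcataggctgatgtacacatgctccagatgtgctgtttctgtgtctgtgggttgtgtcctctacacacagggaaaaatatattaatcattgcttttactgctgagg
Over 250 bases before the start, TATAAA was found before 5 of the 34 members with a RefSeq promoter window and in 12.4% of all 32851 windows. CCAAT was found in 12 of the 34 and in 33.8% of all windows, and GGGCGG in 20 of the 34 and in 32.7%. A member counted if any of its windows matched, whereas the percentages are over single windows, so the shares are unlike measures. Col5a1 held GGGCGG 2 times and Col3a1 held TATAAA, whereas the printed Col4a4-Col4a3 and Col19a1 stretches held no match. Both of these stretches are upstream by GENCODE only. RefSeq extends Col19a1 to 24587922 and Col4a4 to 82587034, so both lie inside these RefSeq genes. RefSeq also starts Col5a1 at 27886381, within its printed stretch.

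Transcripts of 37 of the 42 collagens were detected (88.1%, against 56.2% of all gene IDs), and 11 had 30 counts or more (26.2%, against 15.8%). Col10a1 (hypertrophic cartilage), Col18a1 (the endostatin precursor of basement membranes), Col20a1, Col26a1 and Col6a4 had 0 counts in all 7 libraries. The 42 genes held 1922 counts and the type I genes 461, and Col4a3 with Col19a1 held 1161 counts, 60.4% of the former. Per kilobase of the longest GENCODE coding transcript, Col19a1 held 104 counts over all libraries, Col4a3 84.1, Col1a1 51.4, Col2a1 33.9 and Col1a2 29.2. Col8a1 followed with 13.5. These are totals over the 7 libraries: Col19a1 stood above Col1a1 per kilobase in 3 of the 7 and Col4a3 in 4 of the 7. Counts of 3′ ends need not grow with length. Col19a1 lies on the minus strand, and its 3′ end is at 24261890 by GENCODE and further on, at 24257683, by RefSeq. A longer transcript would lower its value per kilobase, so its first rank was shown for GENCODE lengths only.

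By class, the network genes held 935 counts (48.6%), the FACIT genes 557 (29%) and the fibrillar genes 378 (19.7%). Beaded filament genes held 29 counts (1.51%), transmembrane genes 13 (0.676%), the 2 genes outside these classes (Col26a1, Col28a1) 5, the anchoring fibril gene Col7a1 4 and the multiplexins (Col15a1, Col18a1) 1. A single gene led each large class: Col4a3 held 719 of the network counts, Col19a1 442 of the FACIT counts and Col2a1 173 of the fibrillar counts.

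Which class dominated differed from mouse to mouse. The fibrillar share was 20.0%, 60.1%, 15.4% and 10.5% in tumor-bearing replicates 1 to 4, and 20.5%, 10.3% and 27.2% in tumor-free replicates 1 to 3. Tumor-bearing replicate 2 alone was mostly fibrillar (exact Clopper-Pearson 95% interval 52.7% to 67.2%). The FACIT share was 21.0%, 3.72%, 28.6% and 59.1% with a tumor and 31.8%, 22.9% and 16% without, highest in tumor-bearing replicate 4 (53.6% to 64.5%). The network share was 50.0%, 33.0%, 54.6% and 27.2% against 45.2%, 65.2% and 52.5%, so that the groups overlapped in each of these classes.

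**Figure D2:**
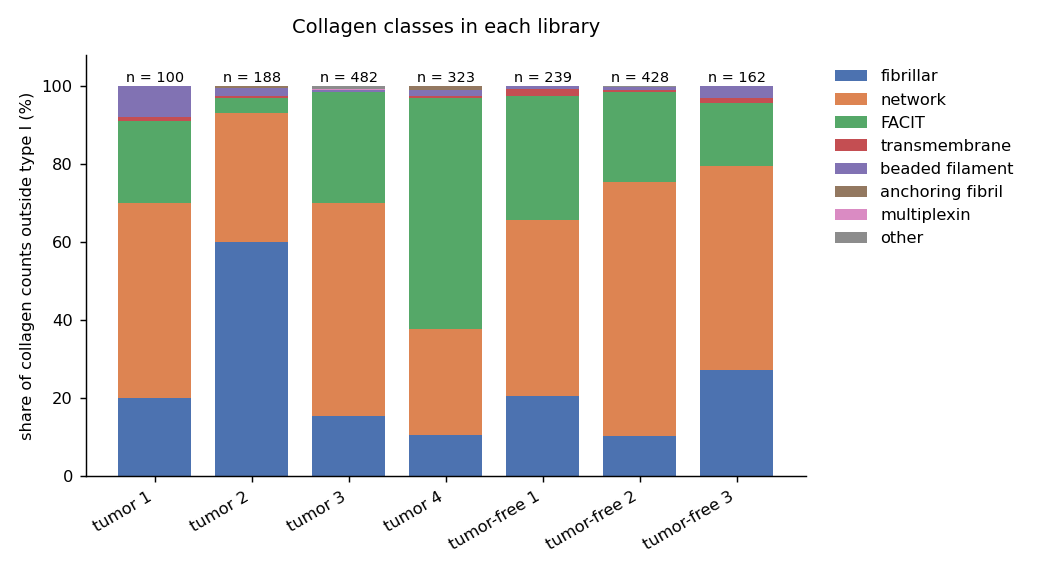
Share of the collagen counts outside type I, in percent (vertical axis), that each class held in each of the 7 libraries (bars); n is the number of such counts. Fibrillar genes hold 60.1% in tumor-bearing replicate 2, and FACIT genes 59.1% in tumor-bearing replicate 4.

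Summed over all 42 genes, collagens other than type I held 2065 ± 554 CPM (SD, n = 4) with a tumor and 2421 ± 1167 CPM (SD, n = 3) without, CPM being computed on library sizes scaled by TMM, edgeR's trimmed mean of M-values. The type I genes held 451 ± 201 and 791 ± 303 CPM. Of all collagen counts, 65.8%, 80.7%, 92.2% and 85.0% lay outside type I in tumor-bearing replicates 1 to 4, and 67.1%, 84.8% and 69.2% in tumor-free replicates 1 to 3. The groups overlapped, and sums over members were given no test. The log2 ratio of the summed CPM, -0.23, turned to 0.19 without tumor-free replicate 2 and to 0.11 without Col4a3.

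No collagen gene passed the test between groups. Over 2495 genes past a filter on low counts, a quasi-likelihood fit in edgeR that included age called 0 genes at a Benjamini-Hochberg adjusted p of 0.05 (0% of those tested), and DESeq2 called 0. At an unadjusted p under 0.05, edgeR had 67 genes (2.69%), 25 higher and 42 lower with a tumor, and DESeq2 had 13 higher and 36 lower. The 6 collagens that passed the filter were Col4a3, Col4a4, Col8a1, Col19a1, Col2a1 and Col5a1, none of them at an unadjusted p under 0.05. Their log2 fold changes were below 0 for 3 and above 0 for 3, with a median of 0.06 against 0.04 over all genes tested. In all 6 the groups overlapped, whereas they did not overlap in 88 of the 2495 genes (3.53%). The other 36 members had too few counts for this test, 5 of them none.

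Without the filter, 37 collagens entered a fit of 13344 genes, and 0 of them had an unadjusted p under 0.05, against 458 genes in all (3.43%). Mean CPM was lower with a tumor for 21 of the 37 (56.8%, against 49.0% of all genes with a count) and higher for 16. The lower side held 7 of 9 fibrillar genes, 5 of 8 network, 4 of 8 FACIT, 3 of 4 transmembrane and 2 of 5 beaded filament genes. Only 18 of the 37 kept their side when any 1 library was left out, so these counts of sides rest on small numbers.

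**Figure D3:**
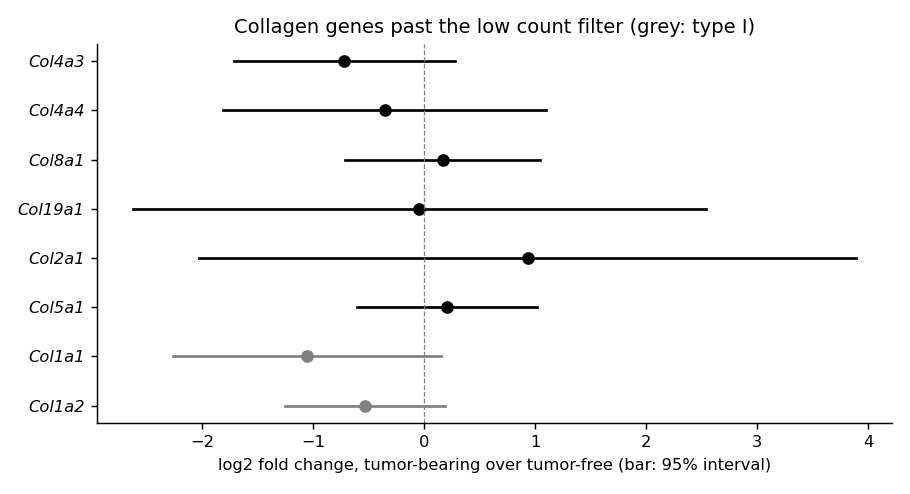
Log2 fold change, tumor-bearing over tumor-free (horizontal axis), of the 6 collagens that passed the low count filter (black) and of the type I genes (grey); points are edgeR estimates and bars their 95% intervals. Every interval includes 0, and those of Col19a1 and Col2a1 are the widest.

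Among the network collagens, Col4a3 (chromosome 1, 82586921 to 82722059, mm10) held the most counts and varied widely between mice of both groups. Its product joins those of Col4a4 and Col4a5 in the basement membranes of the kidney filter and the lung. Col4a3 had 466, 547, 1152 and 362 CPM in tumor-bearing replicates 1 to 4 and 875, 2020 and 379 CPM in tumor-free replicates 1 to 3. The highest and the second lowest of the 7 values both came from tumor-free mice. The group means were 631.5 ± 354.9 CPM (SD, n = 4) and 1091.5 ± 841.8 CPM (SD, n = 3). The log2 fold change was -0.72 (SE 0.43, 95% interval -1.72 to 0.28, edgeR quasi-likelihood adjusted p = 0.990). Without tumor-free replicate 2 it was -0.19, and without tumor-bearing replicate 3 it was -1.10 (unadjusted p = 0.0482, edgeR adjusted p = 0.946).

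The Col4a3 count also has a limit in the annotation. The last exon of Col4a3 (82718800 to 82722059) shares 563 bases with exons of C430014B12Rik, a noncoding gene on the opposite strand that is not among the gene IDs measured. No source used here gives the strand setting of the counting, so reads of the 2 genes may not be told apart, and their part in the Col4a3 count was not tested.

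Col4a4, the head-to-head neighbour, had 6, 3, 26 and 10 counts with a tumor and 3, 19 and 18 without. This was 82.0 ± 47.8 against 111.8 ± 72 CPM, with overlapping groups and a log2 fold change of -0.36 (SE 0.62, edgeR adjusted p = 0.990), which turned to 0.12 without tumor-free replicate 2. The highest Col4a4 CPM came from the library with the highest Col4a3 CPM, tumor-free replicate 2 (161 CPM), and tumor-bearing replicate 3 was the next highest for both (146 CPM of Col4a4). The order of the libraries differed elsewhere. Tumor-free replicate 3 had 145 CPM of Col4a4 with 379 CPM of Col4a3. Tumor-free replicate 1 had the lowest Col4a4, 29.2 CPM, with 875 CPM of Col4a3. Col4a5, the chain that completes this network, had 4 counts in all, and Col4a6 had 1. Col4a1 and Col4a2, the chains of nearly all basement membranes, had 7 and 1 counts over the 7 libraries. Per kilobase of transcript, Col4a3 (84.1) and Col4a4 (8.41) held more counts than the widespread pair (1.06 for Col4a1 and 0.155 for Col4a2). Col4a5 (0.612) and Col4a6 (0.150) lay under Col4a1.

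The partners of type IV collagen in basement membranes were sparse too. Of 15 such genes (laminin chains, nidogens, perlecan and agrin), 11 had a count, none reached 30 counts, and together they held 73. Nid1, a nidogen that links laminin to type IV collagen, had 15 counts, and Lamb1, a laminin chain, had 13. None of the 15 entered the fit. Among 7 endothelial markers, 6 were at 0 in all libraries, Pecam1, Kdr and Emcn included, and Cdh5 had 2 counts.

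Col8a1 and Col8a2 encode the short network chains of type VIII collagen, known from the cornea and vessel walls, and both had counts in all 7 libraries. Col8a1 had 110, 42, 67.4 and 123 CPM with a tumor and 68.1, 67.9 and 96.7 CPM without, and the tumor-bearing values spanned all the tumor-free ones. Its log2 fold change was 0.17 (SE 0.38, 95% interval -0.71 to 1.04, edgeR adjusted p = 0.990). Col8a2 had 1, 2, 16 and 7 counts against 6, 11 and 6 counts, or 43.1 ± 34.5 against 66.7 ± 23.6 CPM (two-sided exact permutation test over 35 regroupings of 7 libraries, p = 0.286, smallest possible p = 0.0286). Pericyte and smooth muscle markers, 4 of 6 with a count, held 0 to 50.8 CPM with a tumor and 8.14 to 42.1 without, and Acta2 and Rgs5 were at 0.

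Among the FACIT collagens, Col19a1 (chromosome 1, 24257683 to 24587922) showed the widest range. Type XIX collagen is a minor collagen found near basement membranes. Its CPM were 261, 42, 483 and 1207 in tumor-bearing replicates 1 to 4 and 584, 764 and 48.4 in tumor-free replicates 1 to 3. Low and high mice occurred in both groups: 4 and 6 counts marked the lowest mouse of each, 177 and 90 the highest. The means were 498.3 ± 505.9 CPM (SD, n = 4) and 465.3 ± 372.2 CPM (SD, n = 3). The log2 fold change was -0.04 (SE 1.09, 95% interval -2.62 to 2.54, edgeR adjusted p = 0.997), an interval too wide to exclude a change of several fold either way.

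The sign of Col19a1 also differed by age. At 31 weeks (3 against 2 mice) the log2 ratio of mean CPM was -1.36, and at 23 weeks (1 against 1) it was 4.64. The 23-week pair holds no replicate, so the ratio there has no error.

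The other FACIT genes were led by Col16a1 and Col12a1. Col16a1, a minor fibril-associated collagen, had 0, 0, 39 and 1 counts with a tumor and 3, 0 and 9 without, and tumor-bearing replicate 3 held 75% of its 52 counts. Col12a1 encodes type XII collagen, which coats type I fibrils in tendon and bone. It had 27.4, 21.0, 50.6 and 47.8 CPM with a tumor and 77.8, 59.4 and 40.3 CPM without, or 36.7 ± 14.7 against 59.2 ± 18.8 CPM (two-sided exact permutation test, p = 0.171). The groups overlapped at tumor-free replicate 3. Its log2 ratio of means was -1.06 at 31 weeks and 0.25 at 23 weeks.

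The type IX genes, whose products coat cartilage fibrils, had 10 (Col9a1), 4 (Col9a3) and 1 (Col9a2) counts, and Col14a1 and Col22a1 had 4 each. Without Col19a1, the FACIT genes summed to 112 ± 124 CPM with a tumor and 128 ± 52.3 CPM without.

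Among the fibrillar collagens, Col2a1 (chromosome 15, 97975602 to 98004724), the main collagen of cartilage, held the most counts. Its counts were 3, 92, 37 and 1 with a tumor and 11, 10 and 19 without, or 41.1, 967, 208 and 6.82 CPM against 107, 84.9 and 153 CPM. Tumor-bearing mice gave the highest and the lowest values, and the tumor-free mice lay between them. The means were 305.7 ± 449.5 CPM (SD, n = 4) and 115.0 ± 34.8 CPM (SD, n = 3). The log2 fold change was 0.93 (SE 1.25, 95% interval -2.03 to 3.89, edgeR adjusted p = 0.990), and it turned to -0.36 without tumor-bearing replicate 2. By age, the log2 ratio of means was 2.08 at 31 weeks and -4.49 for the single pair at 23 weeks.

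The 8 chondrocyte markers listed, none of them a collagen and all 8 with a count, held 972 to 2305 CPM with a tumor and 1079 to 1684 without. They were highest in tumor-bearing replicate 2, the library with the most Col2a1, where Sox9, the transcription factor that activates Col2a1 in cartilage, gave 166 of the 227 counts. Without Sox9 the list held 619 CPM there, 396 to 441 CPM in the other tumor-bearing libraries and 881, 480 and 464 CPM in the tumor-free ones, so that tumor-free replicate 1 was then the highest. Most of what was left came from 1 gene of the list, Prg4. It gave 73 of the 90 counts in tumor-free replicate 1 and 51 of the 61 in tumor-bearing replicate 2. Acan, the cartilage proteoglycan gene, had 7 counts in tumor-bearing replicate 2 and 1 to 13 in the other libraries, and Matn1 had 1 count in all. The part of cartilage cells in the Col2a1 counts was not tested.

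The fibrillar genes other than Col2a1 gave similar sums in tumor-bearing mice, from few counts. They summed to 233, 221, 208 and 225 CPM in tumor-bearing replicates 1 to 4 and to 370, 289 and 201 CPM in tumor-free replicates 1 to 3, or 222 ± 10.6 against 287 ± 84.1 CPM. The tumor-bearing sums lay within a narrow band, and tumor-free replicate 3 lay under all of them. These genes held 205 counts over the 7 libraries. The band was not set against counting error, which is large at such counts, so evenness is not shown to be a trait of the group.

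Col5a1 (chromosome 2, 27886381 to 28039510), whose chain starts type I fibrils and limits their width, had the smallest spread of the 6 collagens tested. It had 151, 73.6, 95.5 and 75 CPM with a tumor and 87.5, 84.9 and 72.5 CPM without, or 98.7 ± 36.2 against 81.7 ± 8.01 CPM. The log2 fold change was 0.20 (SE 0.35, 95% interval -0.61 to 1.01, edgeR adjusted p = 0.990), so an increase of 2-fold is just inside the interval and a larger one outside. Its partner chains Col5a2 and Col5a3 had 7 and 6 counts.

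Col3a1, the fibrillar collagen of skin and vessels that also joins type I fibrils, had 2, 8, 5 and 10 counts with a tumor and 13, 7 and 5 without. This was 52.0 ± 28.7 against 75.4 ± 45.2 CPM (two-sided exact permutation test, p = 0.457). Col11a1, a cartilage chain that nucleates type II fibrils, had 3, 3, 5 and 3 counts against 3, 9 and 4 counts, or 30.3 ± 8.58 against 45.9 ± 26.4 CPM (two-sided exact permutation test, p = 0.343). The groups overlapped for both. Col11a2, a further cartilage chain, had 20 counts, Col27a1, a cartilage fibrillar collagen, 14, and Col24a1, a fibrillar collagen of developing bone, 4. Markers of fibroblasts and tendon, 4 of 7 with a count, held 0 to 41.2 CPM with a tumor and 24.4 to 42.1 without, and Scx and Tnmd were at 0.

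**Figure D4:**
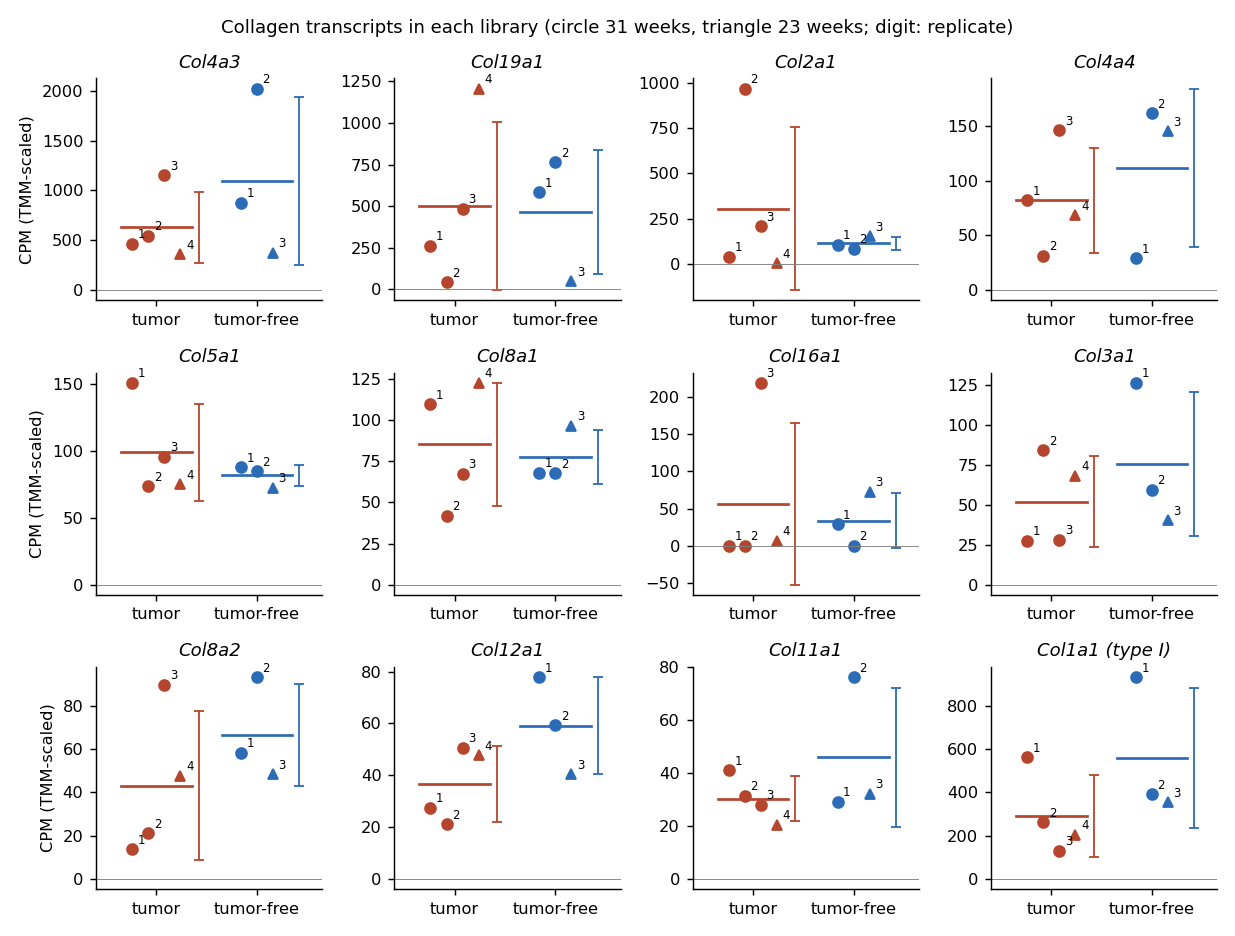
CPM on TMM-scaled library sizes (vertical axis, own scale per panel) of the 11 collagens with 30 counts or more and of Col1a1 in tumor-bearing (red) and tumor-free (blue) mice; digits are replicate numbers, lines group means and bars 1 SD either side, which can reach below 0. The groups overlap in every panel, and Col2a1 reaches 967 CPM in tumor-bearing replicate 2.

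Transmembrane collagens were close to the detection limit and were the only class, of the 5 that were summed, in which the groups did not overlap. They summed to 13.7, 10.5, 0 and 13.6 CPM with a tumor and to 38.9, 25.5 and 16.1 CPM without, from 13 counts in all, of which 4 came from tumor-bearing mice. Col25a1, a collagen of neurons that also occurs in amyloid plaques, gave 7 of them: 0, 0, 0 and 1 with a tumor and 4, 1 and 1 without. Its exact permutation p was 0.0286 (two-sided, n = 4 and 3), the smallest this design can give, and the Benjamini-Hochberg adjusted value over 13344 genes was 1. Groups did not overlap in 447 of the 13344 genes with a count (3.35%), among them 2 of the 37 collagens, Col25a1 and Col24a1, the latter with 0, 0, 0 and 1 counts against 1, 1 and 1. No fold change of a single transmembrane gene or of Col24a1 is given at these counts.

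Without Col25a1, the transmembrane sums were 7.76 ± 5.89 CPM with a tumor and 8.35 ± 8.49 CPM without. Col17a1, a collagen of epithelial attachment plaques, had 2 counts, Col13a1 of the neuromuscular junction 1 and Col23a1 3, all 3 of the latter in tumor-bearing mice.

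Beaded filament genes summed to 110, 42, 11.2 and 34.1 CPM with a tumor and to 19.5, 25.5 and 40.3 CPM without. Col6a2, a core chain of type VI collagen, had the most counts (10), with 6 for its partner Col6a1 and 2 for Col6a3. Col6a5 and Col6a6, chains of restricted tissues, had 6 and 5 counts, 4 of the latter in tumor-bearing replicate 1. Col7a1, which anchors the epidermis to the dermis, had 0, 1, 0 and 3 counts with a tumor and 0 without. Col28a1 had 5 counts, 4 of them in tumor-bearing replicate 3, and Col15a1, a multiplexin, had 1.

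Collagens differed widely in their spread between mice. A dispersion index, the chi-square of a gene's counts against library totals divided by its 6 degrees of freedom, is near 1 where libraries differ only by counting. Col2a1 had an index of 50.5, Col4a3 47.4, Col19a1 42.6 and Col16a1 17.3, against a median of 1.85 and quartiles of 1.06 and 4.39 over the 3742 genes with 30 counts or more. The leading gene of each large class thus exceeded at least 96.5% of these genes. Where mice differ beyond counting, the index also grows with a gene's total, so this rank compares genes of unlike depth. Col4a3, Col19a1 and Col2a1 held 719, 442 and 173 counts. Col4a4 (3.75), Col3a1 (2.24) and Col8a2 (1.86) lay within the quartiles, as did Col8a1 (1.23). Col11a1 (1.0), Col12a1 (0.780) and Col5a1 (0.599) lay at or under the level of counting noise, and 9.03% of genes were under Col5a1. They held 30, 40 and 74 counts, and few counts keep the index near 1 even where mice differ. Col1a1, for comparison, had 22.4 and Col1a2 1.89.

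**Figure D5:**
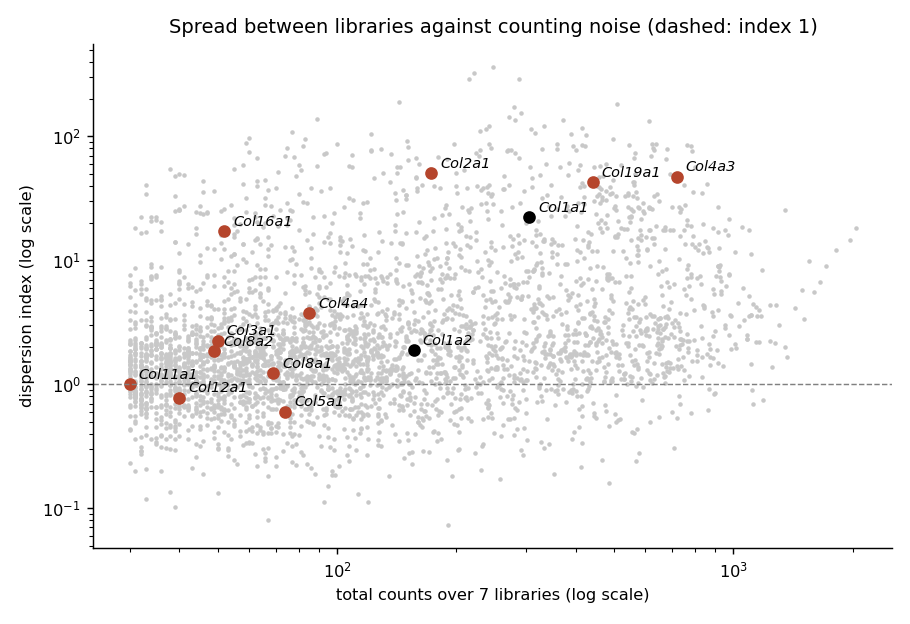
Dispersion index (vertical log axis) against total counts over 7 libraries (horizontal log axis) for the 3742 genes with 30 counts or more (grey), the 11 collagens among them (red) and the type I genes (black); the dashed line marks counting noise alone. Col2a1, Col4a3 and Col19a1 lie between 42.6 and 50.5, and Col5a1 lies at 0.599.

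The high libraries were not the same for the widely varying collagens. Col2a1 peaked in tumor-bearing replicate 2, Col19a1 in tumor-bearing replicate 4, Col16a1 in tumor-bearing replicate 3 and Col4a3 in tumor-free replicate 2. In tumor-bearing replicate 2, Col2a1 had 967 CPM while Col19a1 had its lowest value, 42 CPM. In tumor-bearing replicate 4 the order was reversed, with 1207 CPM of Col19a1 and 6.82 CPM of Col2a1. No correlation is given over these 7 libraries.

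No gene for a protein that binds or orders collagen was called between groups. Of 10 collagen receptors, 9 had a count, 3 reached 30 counts and 0 entered the fit. Mrc2, which takes up collagen for degradation, had 70.7 ± 14.8 CPM with a tumor and 114 ± 56.6 CPM without, and Ddr2, a receptor kinase for fibrillar collagen, 66.9 ± 17.6 and 40.1 ± 23.8 CPM. Of 18 fibril regulators and fibril-associated proteins, 16 had a count, 3 entered the fit and 0 were called by edgeR. Fbn2, a microfibril protein, had a log2 fold change of 0.05 (SE 0.46, edgeR adjusted p = 0.997). Omd, a leucine-rich proteoglycan of bone, had -0.09 (SE 0.37), and Dcn, decorin, which binds collagen fibrils, had -0.31 (SE 0.38, both with an edgeR adjusted p of 0.990). Skeletal muscle markers, 3 of 5 with a count, held 5.89 to 64.8 CPM with a tumor and 0 without, 11 counts in all, and their part in the collagen values was not tested.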

How the data were processed

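Gene expression was measured in 7 libraries of sorted osteoblasts, 1 per mouse. Per the labels' protocols, transcript 3′ ends were sequenced by a customised CEL-Seq method with molecular identifiers, and TopHat2 2.0.10, SAMtools and mm10 are listed per the submitters' processing notes. No source used here gives the counting program, its strand setting or the collapsing of identifiers. The authors deposited raw counts, whole numbers for each Entrez gene ID. A RefSeq table (GRCm38.p6) gave symbols to 23666 of 23725 IDs. Genes passing filterByExpr (minimum count 10, minimum total 15) were tested with glmQLFit (robust) and glmQLFTest of edgeR 4.0.16 (R 4.3.3), TMM scaling, age as a factor, prior count 0.125 and Benjamini-Hochberg adjustment at 0.05. DESeq2 1.42.0 was an alternative. Single genes were compared by two-sided exact permutation over 35 regroupings. Libraries differed pairwise with a chi-square per degree of freedom of 3.57 to 6.85. The test procedure was checked in 5 simulations at each fold change, with 200 of 2495 genes changed. It called 8 of 954 tested genes changed 2-fold (0.839%), 838 of 983 changed 4-fold (85.2%) and 970 of 989 changed 8-fold (98.1%). These rates are over all genes, not collagens alone. The 0 calls between groups therefore do not exclude changes of 2-fold.

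Named collagens were those past the filter, those with 30 counts or more, the gene with most counts of each class, Col2a1 and Col10a1; other genes named were the type I genes, the 2 with most counts in each list, and genes singled out after their values were seen (Col24a1, Dcn and markers among them). Members and lists were chosen with earlier results of these data known. Gly-X-Y runs of at least 3 triplets were counted in GENCODE vM21 coding transcripts. The results were recomputed without age, in 31-week mice, with a block for the replicate number, in DESeq2, with RLE scaling or totals alone, with no filter or with 30 counts demanded in 3 libraries, without each library and, for class sums, without the leading gene.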

Additional observations from a re-analysis of the deposited data

Results flagged for a closer look

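The values of the 4 tumor-bearing libraries were checked 24 times, for each named collagen with a count, the 5 class sums, the sums of all 42 and of type I, and the share outside type I. In 5 of them the highest library stood far from the others by Dixon's ratio. Chance gives this in about 1 group in 20 for normal values, a rate that does not hold for counts near 0. The 24 checks also share genes, so the 5 are not set against an expected number. Col16a1 had 219 CPM in tumor-bearing replicate 3, from 39 of its 52 counts, and 0 to 6.82 CPM in the other tumor-bearing libraries. The summed CPM of the network genes was 1478 in tumor-bearing replicate 3, the deepest library, and 600 to 686 in the other tumor-bearing libraries. Col4a3 gave 1152 of the 1478 CPM. The other 3 are genes with counts in 1 tumor-bearing library, for which the ratio is at its maximum whatever the count. Col28a1 had 22.5 CPM (4 counts) and Col15a1 5.62 CPM (1 count) in replicate 3. Col25a1 had 6.82 CPM (1 count) in replicate 4.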

How the results depend on the processing

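Under the 15 alternatives the test over all genes called 0 genes, and 0 collagens. The sign of Col19a1 turned with no age term (0.20) and with the stricter filter (0.15). With each library left out in turn its log2 fold change ran from -1.32 to 0.51, above 0 without tumor-bearing replicate 1 (0.21) or 2 (0.50) and without tumor-free replicate 1 (0.18) or 2 (0.51). Col2a1 ran from -0.36 to 2.06, below 0 without tumor-bearing replicate 2, and Col4a4 from -0.86 to 0.12, above 0 without tumor-free replicate 2. The cause was not tested. The log2 ratio of the transmembrane sums, -1.50, was -0.10 without Col25a1, which held 7 of 13 counts. The fibrillar ratio, 0.39, was -0.39 without tumor-bearing replicate 2, the network ratio, -0.68, was -0.02 without tumor-free replicate 2, and the FACIT ratio, 0.04, was -1.05 in 31-week mice only. Of 77 alternative log2 fold changes of the 6 collagens tested, 69 kept their direction, and of 60 alternative log2 ratios of sums, 51 did. With the replicate number as a block (no age term, without tumor-bearing replicate 4), 0 of 2281 genes were called, and Col4a3 was at -0.49, Col19a1 at -0.72 and Col2a1 at 1.20. Libraries with the same number did not deviate together (correlations -0.208, -0.121 and -0.145), so the numbers were not taken as pairs. Number 3 joined mice of unlike age, as tumor-free replicate 3 was younger than tumor-bearing replicate 3. Tumor-bearing replicate 4, of the same age as tumor-free replicate 3 (correlation 0.028), was not in the block fit. The block fit and the same-number correlations therefore cannot decide whether the mice were paired in another way. Litter, by which the submitters matched the mice, is in no label and could not be a block. Depth limits 36 of the 42 collagens, which had too few counts to be tested after the filter.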
